A study of Caenorhabditis elegans with 2 samples.

Results

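Small nucleolar RNAs (snoRNAs) guide the chemical modification of ribosomal and spliceosomal RNAs in the nucleolus, and small nuclear RNAs (snRNAs) form the core of the spliceosome or, in nematodes, supply the spliced leaders that are joined to the 5′ ends of many messenger RNAs. In Caenorhabditis elegans many of these genes lie in introns of protein-coding genes, and others stand alone with promoters of their own. Such genes can be transcribed by RNA polymerase II or III. Promoters of snRNA genes carry a proximal sequence element upstream of the start, and tRNA genes carry the polymerase III promoter words called box A and box B inside the gene.

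The members described here were all genes of biotype snoRNA or snRNA on the nuclear chromosomes of the WBcel235 (ce11) annotation that had a region of the pooled list with its summit within 500 bp of the gene start. They number 230, of which 190 are snoRNA genes and 40 snRNA genes. They were drawn from 475 candidates (346 snoRNA and 129 snRNA genes) among 46890 nuclear genes. The snRNA entry mir-1831, 22 bp long, lies inside the snRNA gene sup-39 and has the same pooled region, so that locus is counted under both names. Shares of genes near a peak or region are over the candidates of the group named, so that genes without any region are counted too. Where another base was used, such as the members or the genes near a peak, it is named.

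The regions come from ChIP-seq, which sequences the DNA recovered with a protein, here the nuclear hormone receptor NHR-77 carried as an eGFP fusion. All worms were of strain OP353, with the genotype unc-119(tm4063) III and the transgene insertion wgIs353, and were whole L4 larvae of both sexes pooled. The labels give 2 biological replicates, which form 1 group, and name no tissue in which the fusion is made. No control sample was analysed here, so recovery through NHR-77 cannot be told apart from recovery that an untagged strain would also give.

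Each replicate list and the pooled list held 30000 regions, peaks and background together, and 3457 regions of the pooled list formed the authors' reproducible set, called peaks below. That set equals a threshold on pooled signal, the authors' own enrichment value. Ranks count from 1, the strongest region of a list. The read depth was not given in the sources used here, and the 95% Wilson intervals cover the counting of genes only.

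The upstream sequences of 5 snoRNA genes are shown because they carry the words that went with the highest share of peaks. Each runs 5′ to 3′ on the strand of the gene, from 90 bases before the annotated start to 20 bases after it, in ce11 (RefSeq WBcel235). Capitals mark a box A word (TGGNNNA) and, downstream of it, a box B word (GTTCNANNC), where N is any base. F12F6.11 lies at chrIV:11549844-11549954 (minus strand), T03F7.8 at chrV:11314168-11314278 (plus), F30H5.4 at chrIII:502714-502824 (plus), Y75B12B.12 at chrV:15191073-15191183 (minus) and C05D2.15 at chrIII:5602159-5602269 (minus).
F12F6.11: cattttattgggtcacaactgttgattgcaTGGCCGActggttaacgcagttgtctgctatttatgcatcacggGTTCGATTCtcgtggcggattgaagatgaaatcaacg
T03F7.8: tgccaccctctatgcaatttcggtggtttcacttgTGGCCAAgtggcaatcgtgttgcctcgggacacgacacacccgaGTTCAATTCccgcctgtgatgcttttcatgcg
F30H5.4: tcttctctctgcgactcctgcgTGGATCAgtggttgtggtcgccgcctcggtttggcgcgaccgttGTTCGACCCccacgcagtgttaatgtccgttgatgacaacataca
Y75B12B.12: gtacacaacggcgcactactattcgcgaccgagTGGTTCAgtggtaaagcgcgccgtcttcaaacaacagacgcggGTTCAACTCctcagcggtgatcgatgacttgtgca
C05D2.15: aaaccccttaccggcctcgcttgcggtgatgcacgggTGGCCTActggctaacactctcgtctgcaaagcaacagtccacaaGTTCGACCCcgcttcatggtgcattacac

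A different pair of words was shared by snoRNA and snRNA genes. Capitals mark GNAACC and, after a short gap, TGTC. The 5 genes shown are among the carriers with the strongest peaks. Y53F4B.47, a snoRNA gene, lies at chrII:15025873-15025983 (minus strand). The spliced leader gene sls-2.8 lies at chrIII:12250375-12250485 (plus). The U1 snRNA suppressor gene sup-6 lies at chrII:12944947-12945057 (minus). ZK994.7, a snoRNA gene, lies at chrV:8500489-8500599 (plus), and W05B2.8, an snRNA gene, at chrIII:10989589-10989699 (plus).
Y53F4B.47: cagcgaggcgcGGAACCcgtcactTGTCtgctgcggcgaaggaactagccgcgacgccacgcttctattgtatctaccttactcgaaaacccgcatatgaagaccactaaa
sls-2.8: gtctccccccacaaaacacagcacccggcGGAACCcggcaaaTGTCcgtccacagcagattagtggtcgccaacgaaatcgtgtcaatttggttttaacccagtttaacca
sup-6: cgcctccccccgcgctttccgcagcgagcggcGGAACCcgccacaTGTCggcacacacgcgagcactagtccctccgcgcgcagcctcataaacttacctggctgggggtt
ZK994.7: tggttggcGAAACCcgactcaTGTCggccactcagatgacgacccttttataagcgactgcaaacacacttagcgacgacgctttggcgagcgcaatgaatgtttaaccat
W05B2.8: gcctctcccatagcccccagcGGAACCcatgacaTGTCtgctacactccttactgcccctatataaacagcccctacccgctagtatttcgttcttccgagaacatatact

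Further spliced leader genes are shown because their flanks are alike and they include the strongest snRNA peak. In these, capitals mark the first transcribed bases, which begin the SL2 leader. They lie at chrII:5844775-5844885 (sls-2.1, plus strand), chrII:5543508-5543618 (sls-2.2, plus) and chrII:5544253-5544363 (sls-2.3, minus).
sls-2.1: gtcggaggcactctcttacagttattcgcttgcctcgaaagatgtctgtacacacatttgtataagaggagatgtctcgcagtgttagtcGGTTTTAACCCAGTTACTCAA
sls-2.2: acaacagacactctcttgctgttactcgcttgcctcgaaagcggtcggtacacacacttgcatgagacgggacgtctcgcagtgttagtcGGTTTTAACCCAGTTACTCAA
sls-2.3: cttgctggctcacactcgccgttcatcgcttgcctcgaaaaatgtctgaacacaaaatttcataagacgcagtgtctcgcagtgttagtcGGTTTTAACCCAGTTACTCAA

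A peak summit lay within 500 bp of the start of 75 of 346 snoRNA genes, 21.7% (interval 17.7 to 26.3), and of 14 of 129 snRNA genes, 10.9% (6.58 to 17.4). Among all annotated nuclear genes the share was 6.55%. Without the clustered genes of piRNAs, the short germline guide RNAs, it was 9.10%, and this is the background used below. With the 3457 strongest regions of replicate 1 in place of the peaks, 75 snoRNA genes (21.7%) and 10 snRNA genes (7.75%) were near one, against 8.56% of all genes but piRNA genes. With those of replicate 2 they were 71 (20.5%) and 15 (11.6%), against 8.94%. The snoRNA share was thus above the background in the peak set and in each replicate, whereas the snRNA interval held the background.

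Other gene classes give the scale. tRNA genes had a peak in 144 of 612 cases, 23.5% (20.3 to 27.0), an interval that overlapped that of snoRNA genes. Protein-coding genes had one at their annotated gene start in 9.60% and microRNA genes in 9.20% (6.26 to 13.3). The pooled list, most of which is background, gave a smaller contrast. It reached 54.9% of snoRNA genes (49.6 to 60.1) and 31.0% of snRNA genes (23.7 to 39.4), against 34.4% of all genes but piRNA genes. Of the members with a pooled region, 39.5% of the snoRNA genes and 35.0% of the snRNA genes had a peak, against 26.4%.

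**Figure D1:**
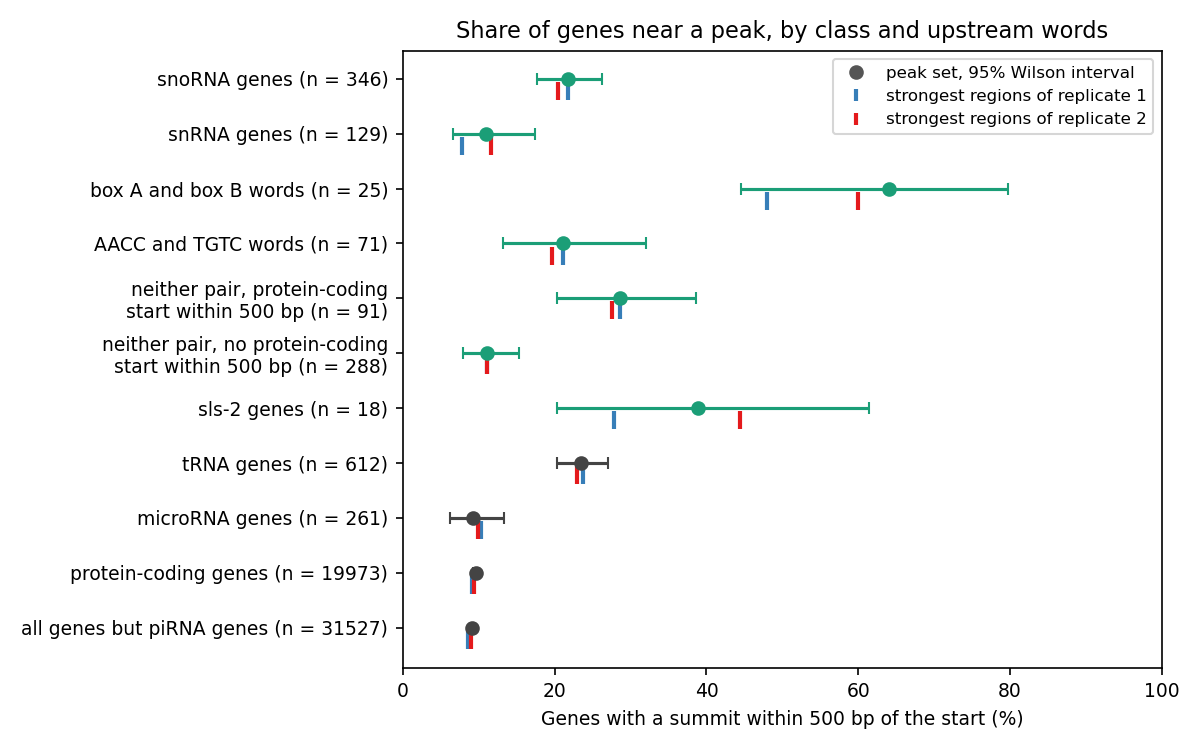
Share of genes with a summit within 500 bp of the gene start (x axis, percent) by class, by upstream word pair and for other gene classes; dots are the peak set with 95% Wilson intervals, and ticks are the strongest 3457 regions of each replicate. Genes with box A and box B words stand highest at 64.0%, and protein-coding genes lie at 9.60%.

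Lying inside an intron went with little difference. Of 233 genes inside a protein-coding intron 41 were near a peak (17.6%, 13.2 to 23.0), and of 242 genes outside such introns 48 were (19.8%, 15.3 to 25.3). The share inside introns was above the 6.94% found for 3906 other genes inside protein-coding introns, although tRNA genes among these reached 21.3% (61 of 286). Outside introns, tRNA genes had a peak in 25.5% (83 of 326). A share over all other genes outside introns was not computed. By strand of the host, a peak lay near 28 of 150 snoRNA genes when the host was on the same strand (18.7%, 13.2 to 25.7), near 9 of 28 when it was on the other (32.1%, 17.9 to 50.7) and near 38 of 168 without a host (22.6%, 16.9 to 29.5). These 3 intervals overlap. For snRNA genes the counts were 3 of 35, 1 of 20 and 10 of 74.

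The strand of the gene itself went with little difference for snoRNA genes. Those on the plus strand were near a peak in 21.9% and those on the minus strand in 21.5%. For snRNA genes the shares were 9 of 61 (14.8%, 7.96 to 25.7) and 5 of 68 (7.35%, 3.18 to 16.1), and these wide intervals overlap. By chromosome, snoRNA genes ranged from 18.6% on IV to 29.1% on V among the autosomes. On X, 1 of 33 was near a peak (3.03%, 0.537 to 15.3), namely D2021.6, with a pooled signal of 112 at rank 489. With the strongest regions of replicate 1, 4 of the 33 were near one, and with those of replicate 2, 1 was, so the low count on X was not of the same size in both replicates. The share of all genes near a peak was not computed by chromosome. Whether the low count on X is particular to snoRNA genes was therefore not tested.

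Summits sat just upstream of the gene starts. Over the 89 genes near a peak, the nearest peak summit lay at a median of -40 bp (quartiles -79 and -1, range -497 to 430), where negative distances are upstream. It was upstream in 67 of 89 (75.3%, 65.4 to 83.1) and between 1 and 100 bp upstream in 46 (51.7%). Of the other genes near a peak, piRNA genes aside, 72.7% had it upstream and 18.5% between 1 and 100 bp upstream, so the members stood apart in the narrow interval and not in the upstream share. Counted over all genes, with or without a peak, the narrow interval held the nearest summit of 46 of the 475 candidates (9.68%) and of 1.78% of all genes but piRNA genes. The median was -37 bp for the 75 snoRNA genes and -42 bp for the 14 snRNA genes. For protein-coding genes near a peak it was -168 bp, with 87.3% upstream and 18.9% between 1 and 100 bp upstream, and for microRNA genes -242 bp. For tRNA genes it was 17 bp, and 47.9% of their summits lay in the first 100 bp of or past the gene start.

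**Figure D2:**
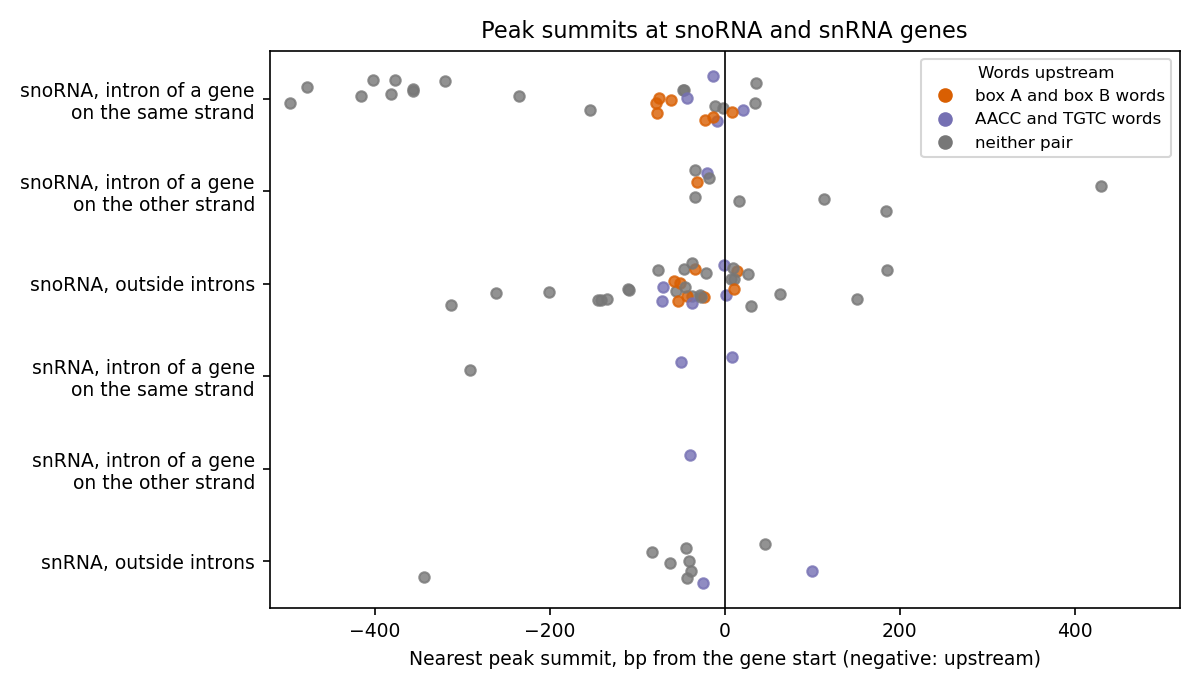
Nearest peak summit of each of the 89 genes near a peak (x axis, bp from the gene start, negative is upstream) by class and host, coloured by upstream word pair; the vertical spread within a row carries no value. Most points lie between -100 and 0 bp, and a separate set of snoRNA genes in same-strand introns lies between -497 and -235 bp.

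Of the 10 snoRNA genes in same-strand introns with a summit over 200 bp upstream, 7 lay in introns of ribosomal protein genes. Of 23 genes with such a host on the same strand, 7 were near a peak (30.4%, 15.6 to 50.9), against 24 of 162 with another same-strand host (14.8%, 10.2 to 21.1). All 7 summits lay -497 to -235 bp from the snoRNA gene (median -381) and within 500 bp of the start of the host. The strongest was at F54E7.10 in rps-12, which encodes a protein of the small ribosomal subunit. Its region had a pooled signal of 320 (rank 32), a signal of 106 in replicate 1 (rank 37) and of 208 in replicate 2 (rank 32), and its summit lay -235 bp from the snoRNA gene and -155 bp from the start of rps-12.

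The same held for the other 6, mostly in genes of the large subunit. D1007.20 in rpl-24 had a pooled signal of 173 (ranks 146 and 148 in the replicates), Y24D9A.9 in rpl-7A 168 (126 and 186) and R151.11 in rpl-6 162 (211 and 167). H06I04.9 in rps-27A, a small-subunit gene, had 118 (690 and 363), and F28C6.11 in rpl-26 ranked 1472. B0041.9 in rpl-4 had a pooled signal of 111 and replicate ranks of 3952 and 198. At each of these genes the summit was nearer to the host start than to the snoRNA gene, so the peak cannot be assigned to the snoRNA gene by position. The pattern also appeared at K07C5.11 in nol-56, itself the gene of a core snoRNA-binding protein (summit -356 bp from the snoRNA gene and -214 bp from the host start).

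At other hosts the summit followed the small RNA gene. Of 31 genes with a same-strand host and a peak, 22 had the summit of their strongest peak over 500 bp from the start of the host. Of these 22, 19 had it within 100 bp of their own start, at 851 to 19685 bp from the host start (median 3299). A protein-coding transcript start lay within 500 bp of the summit at 3 of these 19. The farthest was W05B2.8, deep inside the dynein heavy chain gene dhc-4, with its summit -50 bp from the snRNA gene. M106.6 lay 16071 bp into mix-1, a gene of the condensin complex, with its summit at -75 bp, and C16D9.11 lay 9440 bp into rol-3 with its summit at -13 bp. None of the 9 genes with the summit within 500 bp of the host start, 0 of 9, had it within 100 bp of their own start.

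At 3 further intronic snoRNA genes the summit of the strongest peak lay over 500 bp from the host start and over 100 bp from the gene start. It lay within 500 bp of a protein-coding transcript start. K02F3.15, in an intron of the bZIP factor gene zip-2, had a pooled signal of 216 (rank 73, replicate ranks 118 and 59) with the summit 442 bp downstream of its start. A weaker peak lay nearer, at -320 bp. As K02F3.15 starts 453 bp into zip-2, this nearer summit lay within 500 bp of the host start. A transcript start lay 211 bp from the stronger summit. C04A2.16, in egl-27, had 175 (rank 125, replicate ranks 83 and 163) at -402 bp, with a transcript start 434 bp from the summit. C02F5.15, in rfs-1, had 106 (3169 and 410) at -154 bp, with a transcript start 121 bp from the summit.

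The box A and box B pair marked the genes with the highest share of peaks. The pair, with the starts of its words 40 to 60 bp apart between 150 bp before and 20 bp after the gene start on the gene's strand, was found at 25 of 346 snoRNA genes (7.23%), at 0 of 129 snRNA genes and at 52 of 31052 other genes (0.167%). None of the 25 pairs, 0 of 25, overlapped an annotated tRNA gene. A pooled region lay at 24 of the 25 genes (96.0%, 80.5 to 99.3) and a peak at 16 (64.0%, 44.5 to 79.8). The strongest regions of replicate 1 were near 12 of them and those of replicate 2 near 15. Of the 52 other genes with the pair, 9 had a peak (17.3%, 9.38 to 29.7). The words were chosen after the sequences had been seen, and shorter versions are covered in the closing section.

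The 16 peaks at these genes were of ordinary strength and tightly placed. F12F6.11, whose sequence is shown above, had a pooled signal of 117 (rank 416), with 34.3 (rank 828) in replicate 1 and 84.7 (rank 335) in replicate 2, and its summit at -34 bp. T03F7.8, in an intron of cutl-18 on the other strand, had 91.3 and its summit at -32 bp. F30H5.4 had 82.4 at 11 bp, Y75B12B.12 had 72.8 at -24 bp and C05D2.15, in madf-11, had 66.4 at -61 bp. The weakest of the 16 was F32E10.10 with 47.8 (rank 3314), where the weakest of all peaks had 46.7. All 16 summits lay within 100 bp of the gene start, from -79 to 14 bp.

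Of the 9 genes with the pair and no peak, 8 had a pooled region. The 2 strongest of these, T10B9.11 (42.2, rank 3984) and ZK546.18 (41.5, rank 4069), fell short of the weakest peak by a small margin and had their summits at -31 and -19 bp. The weakest, Y59E1B.14 on X, had a signal of 10.5, with its summit -497 bp away. The shares with a peak were 8 of 14 inside introns (57.1%, 32.6 to 78.6) and 8 of 11 outside them (72.7%, 43.4 to 90.3), and 13 of the 22 genes without a protein-coding start within 500 bp had one (59.1%, 38.7 to 76.7).

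The position of these summits was nearer to that of tRNA genes when counted from box B than from the gene start. Box B began at a median of -14 bp from the snoRNA gene (-44 to -5) and box A at -59 bp. The peak summit lay at a median of -38.5 bp from the gene start in the 16 snoRNA genes and of 14 bp in 91 tRNA genes with the same pair inside them and a peak. Counted from the first base of box B, the medians were -23.5 bp (-61 to 35) and -40 bp (quartiles -95.5 and 6). Words of tRNA genes are internal by nature, so these distances describe where the summits lay and were not tested.

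**Figure D3:**
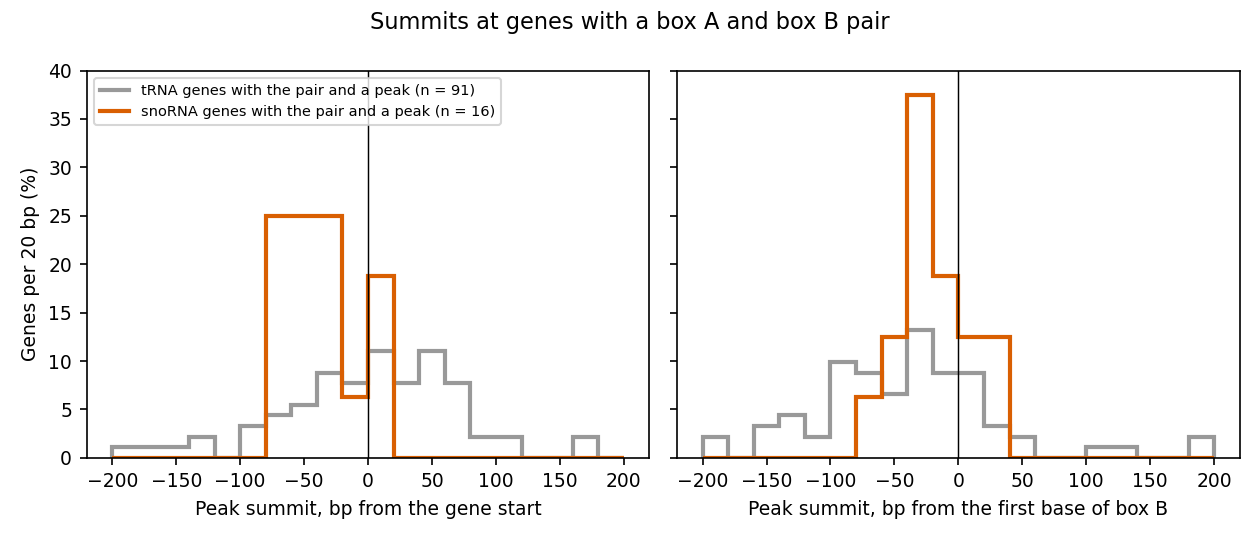
Peak summits at 16 snoRNA genes (orange) and 91 tRNA genes (grey) with a box A and box B pair, as percent of genes per 20 bp, counted from the gene start (left) and from the first base of box B (right). The medians are -38.5 and 14 bp on the left and -23.5 and -40 bp on the right; summits beyond 200 bp are not drawn.

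The GNAACC and TGTC pair was carried by 46 of 129 snRNA genes (35.7%), 25 of 346 snoRNA genes (7.23%) and 95 of 31052 other genes (0.306%), with word starts 11 to 17 bp apart. The snRNA carriers include sup-39 and, with the same words, mir-1831 inside it. No gene, 0 of 475, carried both pairs. The GNAACC word began at a median of -61 bp (quartiles -69 and -60) from the gene start. Peaks were found at 10 of the 25 snoRNA carriers (40%, 23.4 to 59.3), which was above the 49 of 296 snoRNA genes with neither pair (16.6%, 12.8 to 21.2). Among snRNA genes the shares were alike, with 5 of 46 carriers (10.9%, 4.73 to 23.0) and 9 of 83 genes with neither pair (10.8%, 5.81 to 19.3). Of the 95 other genes with the pair, 6 had a peak (6.32%, 2.93 to 13.1).

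The strongest carrier was the snoRNA gene Y53F4B.47. Its region had a pooled signal of 200 (rank 86), with 75.8 (rank 79) in replicate 1 and 128 (rank 103) in replicate 2, and its summit at -71 bp, near the words printed above. F59C6.15 had 142 (rank 239) at -72 bp and ZK994.7, in an intron of the peroxidasin gene pxn-1, 97.8 (rank 720) at -9 bp. T26A8.6 had 65.4 and was among the least alike in the replicates, with ranks of 17460 and 1030. All 15 carriers near a peak had the summit within 100 bp of the start. Just below the threshold, C07A9.14 had 44.6 (rank 3688) at 5 bp.

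Where neither pair was found, the share with a peak went with the neighbour. With a protein-coding start within 500 bp, 26 of 91 genes were near a peak (28.6%, 20.3 to 38.6), and without one 32 of 288 (11.1%, 7.98 to 15.3). The interval of the latter holds the background of 9.10%, but that background is not a matched one. Of its 31527 genes 19973 are protein-coding and have such a start of their own. Other genes inside protein-coding introns had a peak in 6.94%, below the interval, although tRNA genes among these reached 21.3%. A share over other genes without such a neighbour was not computed. Over all snoRNA genes, whatever their words, the counts were 30 of 86 with such a neighbour (34.9%, 25.7 to 45.4) and 45 of 260 without (17.3%, 13.2 to 22.4). Of the 49 snoRNA genes near a peak with neither pair, 25 had the summit within 100 bp of the start, 9 of them with a protein-coding start within 500 bp and 16 without. The 25 include C51F7.4, whose peak is also counted for C51F7.3, a carrier of the box A and box B pair. The strongest of the 25 was Y53F4B.48, with 142 (replicate ranks 178 and 268) at 11 bp. Next came ZK484.9, in an intron of haf-9 on the other strand, with 140 (360 and 285) at -34 bp. C36E8.11 had 118 (336 and 464) at -47 bp. T21B4.20 (111) and T06C12.16 (98.2) had their summits at -21 and -27 bp. Of these 5, Y53F4B.48, C36E8.11 and T21B4.20 had a protein-coding start 297, 321 and 227 bp away. Others were farther off, among them F09G2.14 (134) at -109 bp and ZK484.11 (105) downstream of its start.

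**Figure D4:**
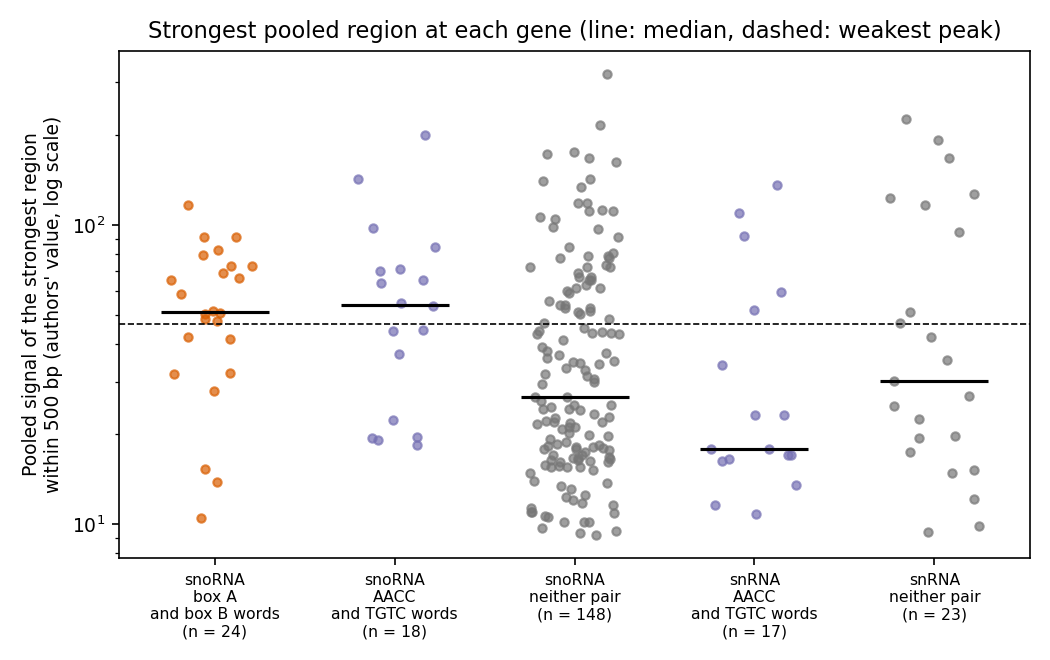
Pooled signal (authors' value, log scale) of the strongest region within 500 bp of each of the 230 members, by class and upstream word pair; lines are medians and the dashed line is the weakest of all peaks, 46.7. The medians are 51.3 and 54.2 for snoRNA genes with either pair, 26.6 for those with neither, and 17.9 and 30.2 for snRNA genes with the GNAACC and TGTC pair and with neither.

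Among the 14 snRNA genes near a peak, 7 were sls-2 genes, named for the spliced leader SL2. SL2 is joined to the downstream genes of operons. The printed first bases of sls-2.8 differ from those of sls-2.1, sls-2.2 and sls-2.3, so not all 7 give the same leader. Of 18 sls-2 genes, 15 had a pooled region (83.3%, 60.8 to 94.2) and 7 a peak (38.9%, 20.3 to 61.4), and the strongest regions of the replicates were near 5 and 8. None of the 12 sls-1 genes, 0 of 12, which give the leader SL1 of most trans-spliced messages and lie in tandem repeats, had even a pooled region (upper limit of the interval 24.2%). The handling of reads from repeated sequence was not given in the sources used here, so for sls-1 a missing region cannot be told apart from reads that were discarded. Of 87 snRNA genes outside the named families, 20 had a pooled region (23.0%) and 6 a peak (6.90%, 3.2 to 14.2).

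The strongest of all snRNA genes was sls-2.1. Its region had a pooled signal of 226 (rank 62), with 81.7 (rank 68) in replicate 1 and 144 (rank 70) in replicate 2, and its summit at -41 bp. Next came sls-2.2 with 193 (replicate ranks 114 and 100) and its pooled summit at 46 bp, and sls-2.4 with 168 (203 and 134) at -43 bp. Replicates 1 and 2 placed the summit at -29 and 91 bp for sls-2.2 and at 83 and -46 bp for sls-2.4. At both genes the side of the start thus differed between the replicates. The regions of sls-2.1, sls-2.2 and sls-2.4 ranked within the first 203 of each replicate. sls-2.8 had 136 (745 and 221) at -25 bp.

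The remaining sls-2 genes were weaker or less alike in the replicates. sls-2.3, which neighbours sls-2.2 on the other strand, had 51.3 (3951 and 2870) at -83 bp, and sls-2.16, in an intron of glr-2, had 59.6 (7475 and 1331) at -40 bp. At sls-2.6 the region of signal 94.7 (1918 and 558) had its summit at -291 bp, which is -96 bp from the start of hgo-1, its host. Of the 8 sls-2 genes with a pooled region and no peak, sls-2.7 was strongest, with 35.4 at rank 5034. Not all of this sequence is unique. Of the 36-base words within 100 bp of the summit, 74.1% at sls-2.1 and 68.7% at sls-2.2 occur once in the genome, against 100% at sls-2.8.

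Of the U1 snRNA genes known from suppressor mutations that alter splice-site choice, sup-6 had a peak of signal 110 (rank 514, replicate ranks 526 and 612) with its summit at 8 bp. The other, sup-39, had a pooled region of 17.9 at rank 12254 and none in replicate 1. Of the 36-base words around the summit, 48.8% at sup-39 and 91.0% at sup-6 occur once in the genome. Whether this bears on the difference was not tested. The other snRNA genes with a peak were C52E4.8, with 127 (455 and 278) at -63 bp, F08G2.10, with 123 (1096 and 206) at -344 bp, and F38E11.10, with 117 (3726 and 202) at -39 bp. The peak at C52E4.8 was also the one counted for snr-4, a gene of an Sm protein that binds snRNAs. W05B2.8 had 92.1 (660 and 1024) at -50 bp.

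The weakest snRNA peaks were T08G5.11, with 51.9 at 100 bp, and B0213.23, with 47.2 at -44 bp. At T08G5.11, 39.8% of the 36-base words around the summit occur once, the lowest share of all 89 genes, whereas 82 of the 89 had at least 90% and 76 had only such words. The replicate ranks of B0213.23 were 11876 and 3344. Genes of the SmY RNAs, which take part in trans-splicing, had pooled regions at 3 of 10 snRNA and 2 of 2 snoRNA entries and no peak, 0 of 12. Among snRNA genes with an identical copy elsewhere in the genome, 4 of 44 had a peak (9.09%, 3.59 to 21.2), and among those without one 10 of 85 (11.8%, 6.52 to 20.3). No snoRNA gene had an identical copy.

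The 89 genes drew on 87 distinct strongest peaks. C51F7.4 and C51F7.3 shared the peak of rank 843, and C27H5.9 and C27H5.10 that of rank 2075. The median pooled signal of the 87 was 73.5, against 67.1 for all peaks, and 53 of them (60.9%) were among the 1728 strongest peaks. Of the 100 strongest of all 3457 peaks, 5 were among these 87, and the highest signal of all was 596. Just inside the threshold lay B0213.23 and the snoRNA gene Y55F3BR.9, with 47.2 and 47.1, and just outside it C34E11.20 and C07A9.14, with 45.2 and 44.6. The 141 members without a peak had signals of 9.22 to 45.2 for snoRNA genes (median 19.4) and 9.46 to 42.3 for snRNA genes (median 17.7), and 50 of them had a deposited q-value under 0.05. The share under that q-value was not computed over all genes with a pooled region and no peak, so the count of 50 has no background.

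The replicates placed most summits alike. Of the 89 genes, 87 had a region in both replicate lists, and the summits of the replicates lay a median of 22 bp apart, against 34.0 bp over all peaks. The upper quartile of this distance over the 87 genes was 49 bp and the largest was 209 bp. The region was among the 3457 strongest of both replicates at 62 genes (69.7%), as for 62.5% of all peaks, of replicate 1 only at 10, of replicate 2 only at 14 and of neither at 1. The median rank of the snRNA genes was 920 in replicate 1 and 418 in replicate 2, and that of the snoRNA genes 1782 and 1409. Ranks differed most at B0041.9, F38E11.10 and T26A8.6, by 20, 18.4 and 17 times, and in each of these replicate 2 was the stronger.

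**Figure D5:**
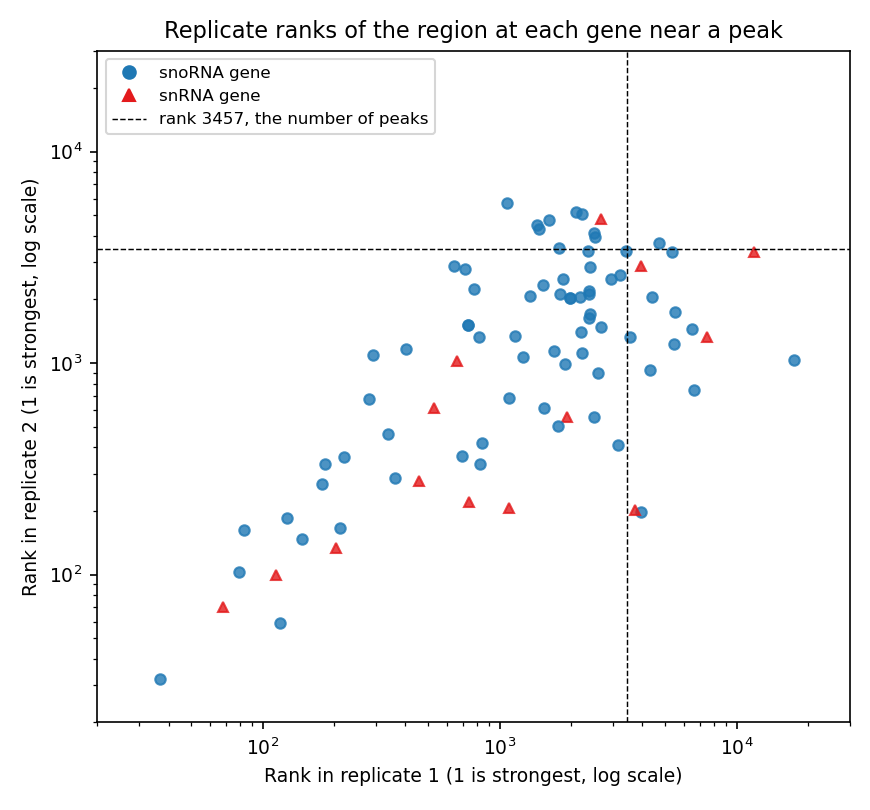
Rank of the region at each of the 87 genes with a region in both replicate lists (x axis replicate 1, y axis replicate 2, both log scales, 1 is strongest); circles are snoRNA and triangles snRNA genes, and dashed lines mark rank 3457. The strongest genes lie near the diagonal, and 62 genes fall inside both lines.

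Genes of proteins that bind these RNAs were near peaks at shares above that of protein-coding genes, and genes for making snRNAs were near the background. Of 19973 protein-coding genes, 10.2% had a peak within 500 bp of any of their transcript starts. Of 20 genes of Sm, Lsm and other snRNA-binding proteins 10 had one (50%, 29.9 to 70.1), led by snr-4 (127, rank 337), snr-2 (98.8, rank 697) and snr-3 (93.9, rank 782), all Sm proteins. Of 9 genes of snoRNA-binding and nucleolar proteins 6 had one (66.7%, 35.4 to 87.9), led by fib-1 (146, rank 223), the methyltransferase of box C/D particles, and followed by Y48A6B.3 (90.2) and nol-56 (84.7). The snoRNA gene K07C5.11 lies in nol-56 and shares its peak. Of 19 genes for transcription and end processing of snRNAs 3 had one (15.8%, 5.52 to 37.6, an interval that holds 10.2%), all of the Integrator complex, which cleaves snRNA precursors. These were ints-4 (169, rank 140), ints-1 (93.5) and ints-2 (65.2).

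The promoters of the members differed from those of all genes but piRNA genes in some common words and not in others, in part as those of tRNA genes did. Within 250 bp before and 50 bp after the start, on either strand, GATA words (AGATAA, with A or T as its first and A or G as its last letter) were found at 39.3% of the members near a peak, at 46.8% of those without and at 52.4% of all genes but piRNA genes. AGGTCA, the core word of many nuclear receptors, was found at 10.1%, 9.22% and 8.62% of these sets, and CACGTG at 8.99%, 4.26% and 5.25%. TATAAA was found at 28.1%, 26.2% and 34.2%, and TTTTTT at 51.7%, 66.7% and 76.9%. GGTTCGA, which overlaps box B, was found at 12.4%, 5.67% and 2.72%. CTGATAA, which contains a GATA word, was found at 8.99%, 7.09% and 7.30%, and GAGAGAGA at 3.37%, 6.38% and 3.93%. In tRNA genes TATAAA was found at 26.8%, TTTTTT at 65.2% and GGTTCGA at 8.99%. For these words tRNA genes departed from all genes but piRNA genes in the same direction as the members near a peak. GATA words were found at 51.1% of tRNA genes, close to the 52.4% of all genes but piRNA genes. By class, GATA words were found at 91 of 190 snoRNA members (47.9%) and 10 of 40 snRNA members (25%), and AGGTCA at 14 (7.37%) and 8 (20%) of them.

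Words of 8 letters upstream of the start repeated the pairs. CGGAACCC, which holds the GNAACC word, lay between 100 and 20 bp upstream on the gene's strand in 24.0% of snRNA genes, 5.49% of snoRNA genes and 0.0386% of other genes. TGTCGGTA followed in 17.8% of snRNA genes, TGTCGGCC in 5.20% of snoRNA genes and TGGCGCAG, which holds a box A word, in 4.34% of snoRNA genes. These words describe the sequence of all 475 candidates and use no measured value.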

How the data were processed

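ChIP-seq of eGFP-tagged NHR-77 was measured in 2 biological replicates of whole L4 larvae, which form 1 group. For each replicate and for both pooled, the authors deposited a list of 30000 regions in ce11, peaks and background together, and a set of 3457 peaks thresholded on the irreproducible discovery rate, per the deposited file listing. Each region carries a signal, an enrichment value as the authors deposited it. Scales differ between lists, so signals served for ranks inside 1 list. The −log10 q values are those the authors deposited. The control's type, aligner, caller, versions, threshold and read depth were not given in the sources used here, so the precision that depth gives is unknown. Lists in ce10 were not used.

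Genes came from Ensembl release 115 (WBcel235) and names from RefSeq. All 475 candidates matched by WormBase ID, and 36 had another name in Ensembl. A gene start is the 5′ end of the gene. A gene is near a peak if a summit lies within 500 bp, and it counts as inside an intron if it lies wholly within an intron of a protein-coding transcript. Position uses the nearest summit and signal the strongest region. Distances of a summit from a host start or a protein-coding transcript start use the strongest region. Replicate values come from the strongest replicate region overlapping the pooled region. Uniqueness is the share of 36-base words, within 100 bp of the summit, that occur once in the nuclear genome on either strand.

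Named genes are, by a rule fixed with the design, every snRNA gene with a peak, the 12 snoRNA genes inside and the 12 outside introns with the highest pooled peak signal, the 2 weakest peaks, the 2 strongest other regions, and the 3 genes whose replicate ranks differ most. Further genes were named after their values were seen. The members, protein lists and fixed motifs were chosen with earlier results of these data known, and the word pairs after the sequences were seen, and shares are given with no p-value. Alternatives changed the window, the peaks used, the replicates, the copies and the hosts. On simulated data, 1000 of 1000 genes with 200 planted summits were scored as planted. Of box A and box B pairs planted at a fixed spacing, 400 of 400 were found, and no GNAACC and TGTC pair was planted. Python 3.11.15, numpy 2.4.6, scipy 1.17.1 and matplotlib 3.10.9 were used.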

Additional observations from a re-analysis of the deposited data

How the results depend on the processing

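Of 66 alternatives tried for 8 results, 59 left counts within 1.5 times, the upstream share within its interval, or the median distance within the SD of 13.8 bp between replicates. With only the 1728 strongest peaks, 44 snoRNA genes, 25 genes inside introns and 29 outside them were near a peak. With genes near a protein-coding start left out, these were 45 of 260 snoRNA genes (17.3%) and 23 of 163 genes inside introns (14.1%). With a window of 1000 bp, 69 genes inside introns were near a peak. These settings use fewer peaks, fewer genes or a wider window by construction. Leaving out either replicate moved the median distance to between -45.5 and -26 bp, and the cause was not tested. The SD of 13.8 bp was taken from these same medians, so it sets no independent limit for them. With shorter words, chosen after the data were seen, 19 of 37 genes with a box A and box B pair had a peak (51.4%) and 17 of 82 with the other pair (20.7%). Of 42 named genes, 6 ranked past the number of peaks in replicate 1 and 4 in replicate 2. No paired analysis was possible because there is 1 group. With 2 replicates, no spread over samples beyond each replicate's value can be given, and without an analysed control no region can be set against an untagged strain. Genes with near-identical copies, above all sls-1, depend on how reads of repeated sequence were treated.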
